A study of Mus musculus with 2 samples.

Results

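The genes described here are 46 genes of the mitotic spindle and kinetochore, chosen by name: each gene took its value from the probe set of highest mean log2 signal among those that list it as their only gene. Of the 46, 45 had such a probe set, out of 18193 genes in all. The exception, Ccnb1 (cyclin B1), was not analysed here. Sgol1 (shugoshin) was matched through its current symbol, Sgo1. A gene counted as measured when its probe set exceeded a floor of 94.8, the higher of the 2 arrays' median signals, on at least 1 array. This held for 43 of the 45, and all 43 exceeded the floor on both arrays, so none of them was included through a single genotype. The remaining pair, the kinesins Kif14 and Kif15, lay below the floor on both arrays.

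The study compared mouse embryonic fibroblasts, the connective tissue cells that grow out of dissociated embryos, of 2 genotypes: wild type, and homozygous for the L307R change in Phc2. Phc2 belongs to Polycomb repressive complex 1, a chromatin complex that keeps genes silent, and L307R replaces a leucine by an arginine in the SAM domain, by which Phc2 molecules join into chains. Both cultures were C57BL/6, taken at embryonic day 12.5 and used at passage 1, and each gave 1 Affymetrix array of total RNA. The sources used here do not give the number of embryos behind a culture. A single array per genotype leaves the spread between cultures unknown, so no difference was tested and no p-value is given. Every value compares 2 cultures, and the number of arrays limits its precision.

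At mitosis a cell parcels its duplicated chromosomes into 2 daughters. Kinetochores, protein plates built on the centromeres, hold the chromosomes to spindle microtubules, kinesin motors move and shorten these microtubules, the spindle checkpoint delays anaphase until every kinetochore is attached, and the passenger complex and the centralspindlin proteins carry the process on to cytokinesis. Most of these genes are transcribed mainly in G2 and M phase, under the DREAM and MuvB complexes, which bind a promoter element called the cell cycle genes homology region (CHR). In a culture that is not synchronised, such RNAs come from the cells then in or near mitosis. On arrays of whole cultures, fewer such cells and less RNA per cell cannot be told apart.

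Promoters are shown first because the genes were chosen for a shared phase of the cell cycle, and the CHR is the element known for it. RefSeq promoter windows (assembly GRCm38.p6, 250 bases before to 50 after an annotated start) were found for 40 of the 46 genes; Aurkb, Cdc25c, Incenp, Kif20a, Spc24 and Tpx2 had none. The first 3 stretches are the 100 bases before the start, for Cdc20 and Kif11, which carry a CHR there, and for Nuf2, the gene of lowest log2 ratio, which carries none in its window. Capitals mark a CHR (TTTGAA or TTCGAA) or a CCAAT box, each on either strand, so a CCAAT box on the opposite strand reads ATTGG, and the first of the CHR forms reads TTCAAA there.
Cdc20, chr4:118437344-118437443, minus strand: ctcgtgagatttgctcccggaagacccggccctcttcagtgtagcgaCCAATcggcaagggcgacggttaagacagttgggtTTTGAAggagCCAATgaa
Kif11, chr19:37376282-37376381, plus strand: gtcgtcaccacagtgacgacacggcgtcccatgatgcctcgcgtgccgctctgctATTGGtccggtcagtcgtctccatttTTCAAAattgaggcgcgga
Nuf2, chr1:169531465-169531564, minus strand: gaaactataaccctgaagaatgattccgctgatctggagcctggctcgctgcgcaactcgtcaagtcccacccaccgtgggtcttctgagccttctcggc

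The next 7 are stretches of 30 bases around the CHR match nearest the start, here with only the CHR in capitals. They show, for each role but the passenger complex, the gene of lowest log2 ratio among those with a match within 50 bases of the start, and Espl1, the gene of highest log2 ratio.
Cenpf, kinetochore, chr1:189688067-189688096, minus strand: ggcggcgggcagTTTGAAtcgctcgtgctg
Kif22, kinesin, chr7:127042420-127042449, minus strand: gggccccggtaaTTCAAAagagagaagcgg
Bub1, checkpoint, chr2:127831828-127831857, minus strand: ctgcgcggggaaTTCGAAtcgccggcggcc
Plk1, mitotic entry, chr7:122159453-122159482, plus strand: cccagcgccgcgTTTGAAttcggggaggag
Ect2, cytokinesis, chr3:27153829-27153858, minus strand: gagagagcgactggattttTTTGAAtcgga
Sgol1, chromatid separation, chr17:53689271-53689300, minus strand: gtaacgcagaatTTCGAAtgtggcggcggt
Espl1, chromatid separation, chr15:102296254-102296283, plus strand: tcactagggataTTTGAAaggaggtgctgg

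A CHR match lay in the windows of 29 of the 40 genes (72.5%), while 21.7% of the 27025 genes of the promoter table and 16.3% of the 9264 measured genes in it held one. Most of these matches sat close to the annotated start: 27 of 40 genes (67.5%) had one within 50 bases of it, against 6.12% of all genes of the table. That narrower window was chosen after the positions were seen. In Cdc20 the match began 18 bases before the start and in Kif11 19 bases before it. A CCAAT box, the element of the factor NF-Y, stood in the windows of 29 genes as well (72.5%, against 41.1% of all genes), and 24 genes held both in 1 window (60%, against 8.61%). One CHR and one CCAAT match overlapped. The E2F core (TTTCGCGC or TTTGGCGC) was found in 2 genes, Kif18a and Kif15 (5.00%, against 0.929%). In the map of matches around the start, no match of any of the 3 elements appears for Nuf2, Mad2l1, Birc5, Nusap1 and Pttg1, which says only that these letters are not in these windows.

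**Figure D1:**
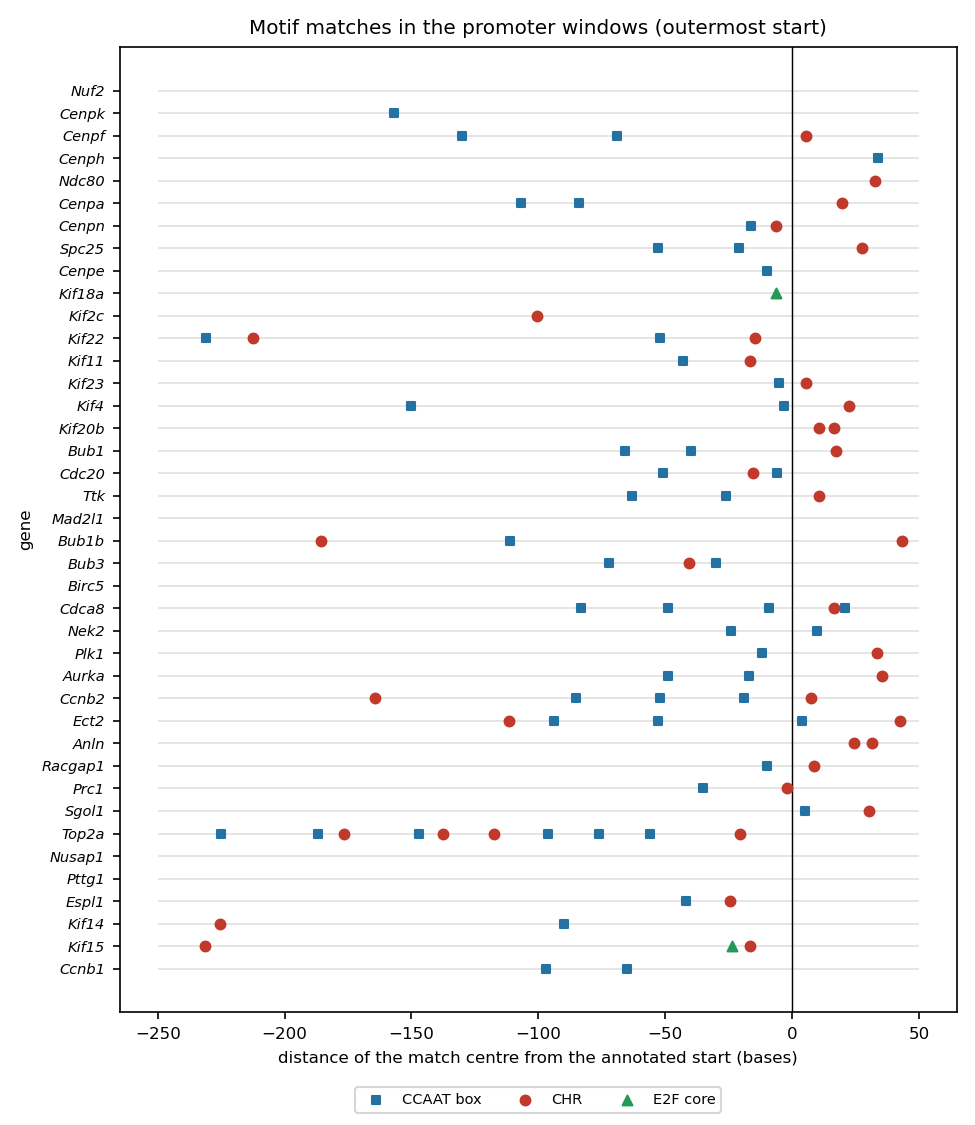
Positions of CHR, CCAAT box and E2F core matches in the promoter windows of 40 genes, at the outermost annotated start of each; the x axis is the distance of the match centre from the start in bases and each row is a gene. Of the 39 CHR matches shown, 29 lie within 50 bases of the start.

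The mitotic genes were mostly lower in Phc2 L307R, by small amounts. Of the 43 measured, 37 were lower (86.0%), where 40.9% of the 11408 measured genes were lower. The 95% exact binomial interval of the 86.0% was 72.1% to 94.7%. It treats the genes as independent, although they were chosen for a shared phase of the cell cycle, and leaves out culture to culture variation. The genes were also listed with earlier results of these data known, so the interval cannot show whether the genotypes differ. The other 6 (Bub3, Ccnb2, Espl1, Kif20b, Pttg1 and Tpx2; 59.1% of all measured genes were higher) include 3 near 0 that changed sign with the processing: Ccnb2 and Pttg1 were below 0 once the arrays were centred, and Kif20b was below 0 under 4 of the 10 alternatives tried. The median log2 ratio, Phc2 L307R minus wild type, was -0.33, against 0.06 over all measured genes. At the 25th and 75th percentiles the members stood at -0.48 and -0.10 and all measured genes at -0.14 and 0.24. Only Nuf2 was at least 2-fold lower (0.535% of all measured genes were), and none was at least 2-fold higher (0.579% of all measured genes were). At least 1.5-fold lower were 7 genes, or 16.3% of the members (3.25% of all measured genes were): Nuf2, Ect2, Kif18a, Kif2c, Cenpk, Spc24 and Kif22. None was at least 1.5-fold higher (4.19% of all measured genes were).

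The only error these arrays offer is the disagreement between probe sets of 1 gene, whose SD was 0.32 on the log2 scale over the 5460 genes that had 2 or more measured, and 0.27 over the 27 such members. A log2 ratio below minus this SD of 0.32 was found in 22 members (51.2%; 11.0% of all measured genes), and none was above it (16.8% of all measured genes). Neighbours in the order of log2 ratios differed by at most 0.31, the gap between Nuf2 and the next gene, Ect2, which is below the SD of 0.32 over all genes and above the 0.27 over the members. Every other pair of neighbours lay closer than either SD. Both SDs are of single values, and neighbours in an ordered list lie close in any case, so these gaps say little.

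**Figure D2:**
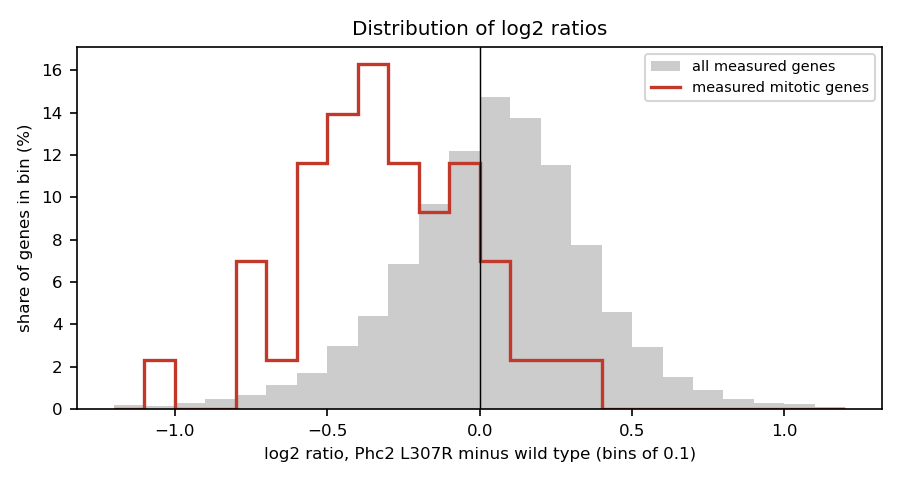
Share of genes in bins of 0.1 of the log2 ratio (x axis, Phc2 L307R minus wild type), in percent (y axis), for 11408 measured genes (grey) and the 43 measured mitotic genes (red line); 51 of all measured genes lie beyond the axis and none of the mitotic genes. The mitotic genes centre on -0.33 and all measured genes on 0.06.

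All 10 genes of the kinetochore were lower at their main probe set, with a median log2 ratio of -0.35. The Ndc80 complex, a rod of 4 proteins that grips the microtubule end, ran from -1.08 to -0.10. Nuf2, 1 of the pair whose heads bind the microtubule, read 1154 in the wild type culture and 545 in the mutant one, which is 2.12-fold lower (log2 ratio -1.08). Signals are given in this order from here on. Its partner Ndc80 had 555 and 448, a log2 ratio of -0.31. At the other end of the rod, which is anchored in the inner kinetochore, Spc24 gave 664 and 439 (-0.60) and Spc25 gave 1408 and 1309 (-0.10). Partners within the complex thus differed by more than the SD between probe sets. That SD is of single values, and a difference of 2 values spreads wider. Nuf2, Ndc80 and Spc24 each rest on 1 probe set. A second, dim probe set of Spc25, below the floor in wild type, was at 0.22.

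Inner kinetochore genes were lower by varied amounts. Cenpk, a subunit of the constitutive centromere network, had signals of 756 and 483, a log2 ratio of -0.65. Cenph, which pairs with it in that network, had 479.6 and 368 (-0.38). Cenpa, the histone H3 variant that marks the centromere, gave 1916 and 1646 (-0.22), and Cenpn, which reads Cenpa nucleosomes, 664 and 609 (-0.12). The further measured probe sets of Cenpa and Cenpn stood at 0.23 and 0.02, so their direction depends on the probe set. On the fibrous outer layer, Cenpf had 1171 and 874 (-0.42), with further, dim probe sets at -0.15 and 0.29. Cenpe, the kinesin that carries chromosomes along microtubules, was at -0.09 (901 and 847) at its main probe set and at -0.85 (405 and 224) at its other.

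**Figure D3:**
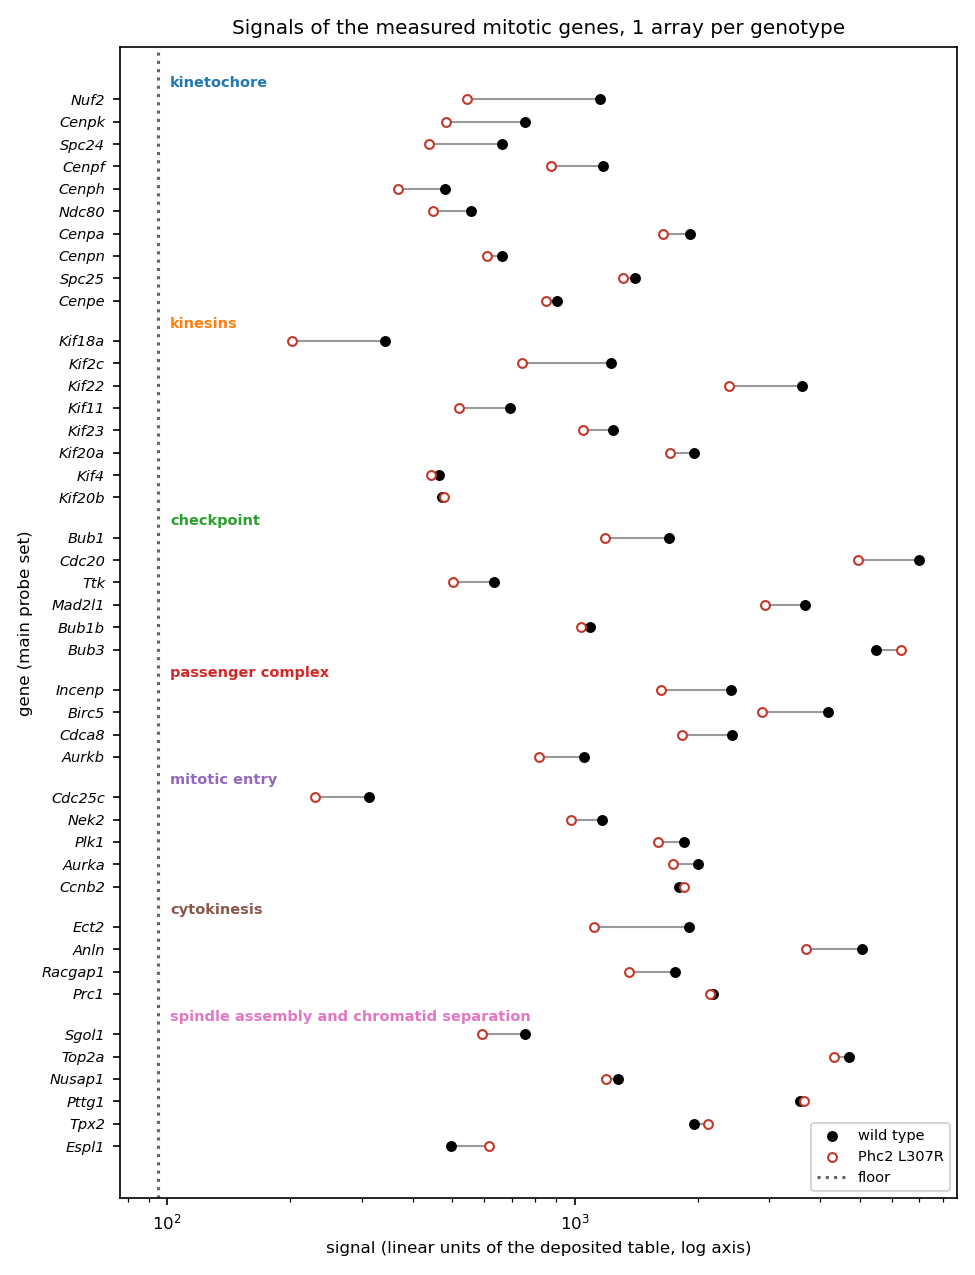
Signal of the main probe set of each of the 43 measured genes in wild type (black) and Phc2 L307R (open red), on a log axis, grouped by role; the dotted line is the floor of 94.8 and there is 1 array per genotype, so no error bar. In 37 of the 43 the open circle lies to the left; levels of different genes are not comparable because each probe set binds with its own strength.

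Among the kinesins 7 of 8 measured genes were lower, and the median log2 ratio was -0.33. Kif18a, which damps the movement of chromosomes at the spindle equator, had signals of 342 and 203 and was lowest at -0.75. Kif2c (MCAK), a kinesin that takes microtubule ends apart, had 1225 and 742 (-0.72) at a probe set with the suffix _x_at, which marks probes that can bind other transcripts. Its other measured probe sets, at 696 and 679 and at 628 and 578, gave only -0.04 and -0.12. The chromosome-arm motor Kif22 was lower at all 3 of its probe sets. Its main one, also _x_at, read 3598 and 2387 (-0.59). An _s_at one, whose suffix marks probes shared between transcripts, was at -0.82. The one without a suffix was at -0.41, less than 1.5-fold lower. Kif11 (Eg5), which slides the spindle poles apart, was lower at all 3 of its probe sets as well, from -0.42 to -0.13, with 695 and 519.8 at the main one.

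The 4 remaining measured motors, of which Kif20a and Kif23 act late in mitosis, were nearer to 0 at their main probe sets, and a second probe set was lower where there was one. Kif20a, which brings the passenger complex to the midzone, had 1959 and 1707 (-0.20). Kif23, the motor of centralspindlin, had 1238 and 1045 (-0.24), and -0.67 at its second probe set. The chromokinesin Kif4 was at -0.07 (464 and 443). Kif20b, whose main probe set read 473 and 478 (0.02), was the only measured kinesin not lower there, and its second probe set, below the floor in Phc2 L307R, was at -0.71. Kif14 and Kif15, not measured, had signals of 41 and 18 and of 32 and 8.8.

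Of the 6 checkpoint genes, 5 were lower, with a median of -0.33. Bub1, a kinase that recruits checkpoint proteins to kinetochores, had signals of 1700.4 and 1187 (-0.52), and a dim second probe set at -0.31. Cdc20, the activator of the anaphase promoting complex that the checkpoint holds in check, had 6978 and 4943 (-0.50) at an _x_at probe set, but -0.05 at the probe set without a suffix (3326 and 3219) and 0.15 at its dim remaining one. Mad2l1, which binds Cdc20 in the inhibitory complex, had 3672 and 2923 (-0.33). The checkpoint kinase Ttk (Mps1) was at -0.34 (634 and 502) and -0.23 at its second probe set. Bub1b (BubR1), another part of that complex, was near even at -0.07 (1089 and 1037), with a second probe set at -0.21. Bub3, which carries both Bub proteins to the kinetochore, was higher, with 5471 and 6313 (0.21) at its main probe set and 0.22 at its other.

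The chromosomal passenger complex was the most even group. Its 4 members lay between -0.58 and -0.37, with a median of -0.48. Incenp, the scaffold, had signals of 2419.6 and 1624 (-0.58). Birc5 (survivin), which docks the complex on centromeric histones, had 4173 and 2869 (-0.54) at its single probe set. Cdca8 (borealin) had 2432 and 1829 (-0.41), and Aurkb, the kinase of the complex, 1054 and 815 (-0.37). Every measured probe set of the 4 genes was lower: those of Cdca8 reached from -0.41 to -0.25, those of Aurkb were -0.37 and -0.38, and those of Incenp were -0.58, -0.47 and -0.01. The main probe sets of Incenp and Aurkb are _x_at and that of Cdca8 is _s_at. Aurkb has no probe set without such a suffix.

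Of the 5 regulators of entry into mitosis 4 were lower, with a median of -0.21. Plk1, a kinase needed from entry to cytokinesis, had 1852 and 1599.5 (-0.21), and Aurka, the kinase of the spindle poles, 2000 and 1738 (-0.20). Nek2, which separates the centrosomes, was at -0.25 (1163 and 981) and -0.55 at its 2 measured probe sets. Cdc25c, the phosphatase that switches on Cdk1, had 312 and 231 (-0.44), and 318 and 173 (-0.88) at its other probe set. Ccnb2 (cyclin B2), a partner of Cdk1, had 1801 and 1853, a log2 ratio of 0.04.

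The 4 cytokinesis genes were all lower, with a median of -0.42. Ect2, the exchange factor that activates RhoA at the cell equator, had 1901 and 1111, 1.71-fold lower (-0.77) on 1 probe set. Anln (anillin), a scaffold of the contractile ring, had 5047 and 3678 (-0.46), with a dim second probe set at -0.25. Racgap1, the partner of Kif23 in centralspindlin, had 1761 and 1357 (-0.38) and -0.49 at its second probe set. Prc1, which bundles microtubules of the midzone, was at -0.03 (2187 and 2148) at its main probe set, whose suffix _s_at marks probes shared between transcripts, and at -0.42 (2252 and 1687) at the other, although both have similar signals in wild type.

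Genes of spindle assembly and chromatid separation were the one role without a common direction: 3 of 6 were lower and the median was -0.03, which turned to 0.09 with the mean over a gene's probe sets. Sgol1, which protects cohesin at the centromere, had 754 and 592 (-0.35), and -0.66 at its second probe set. Top2a, the topoisomerase that untangles sister chromatids, had 4711 and 4328 (-0.12), and a second probe set at 0.25. Nusap1, a microtubule-binding spindle protein, had 1272 and 1189.5 (-0.10). Tpx2, the activator of Aurka, was at 0.11 (1961 and 2115), with further probe sets from -0.16 to 0.62. Pttg1 (securin), which holds separase inactive, was at 0.03 (3564 and 3639) and 0.27. Espl1, separase itself, had 497 and 616 and the highest ratio of all members, 0.31, on 1 probe set.

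**Figure D4:**
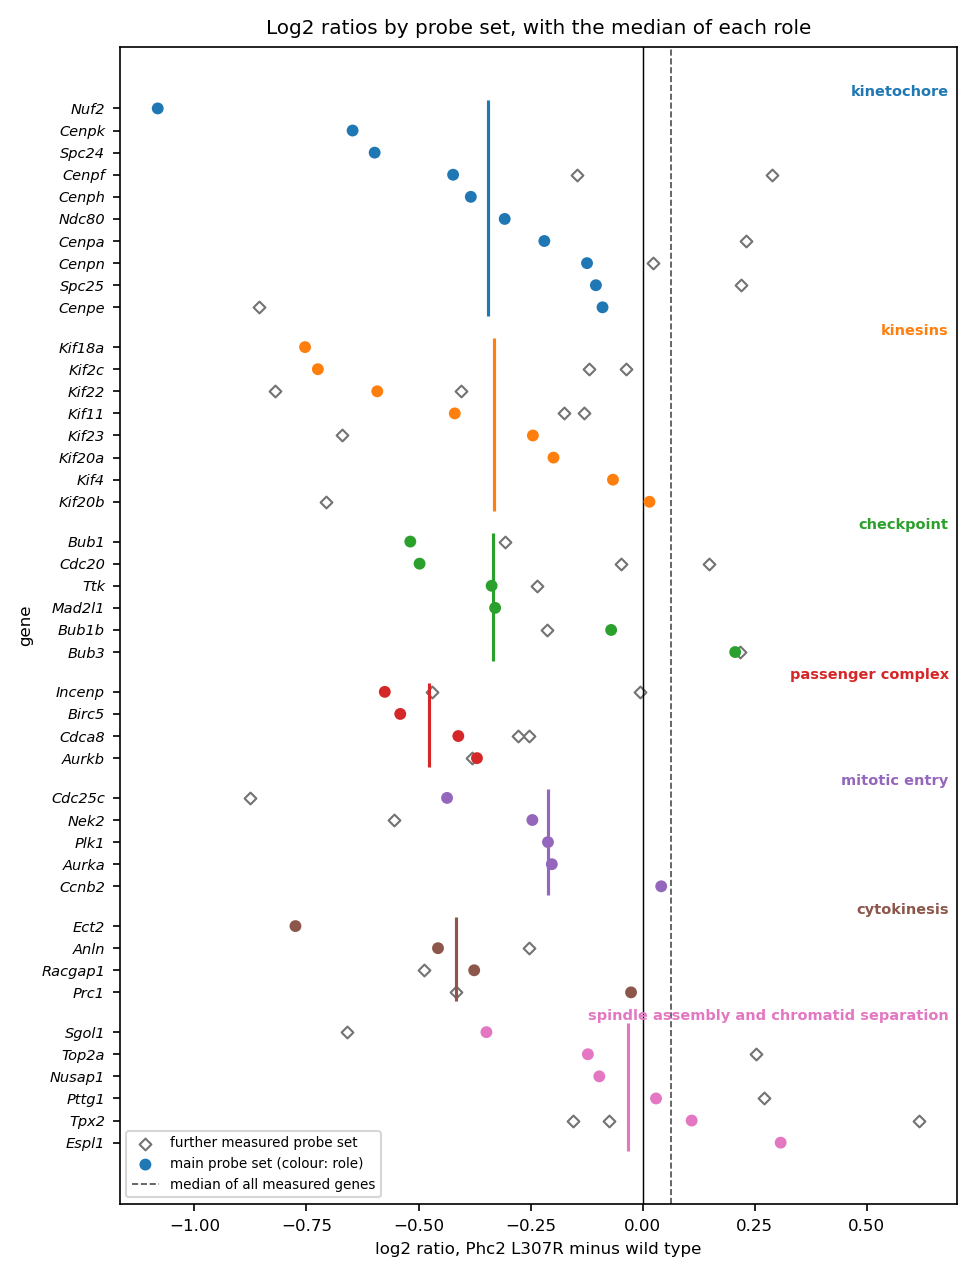
Log2 ratio (x axis, Phc2 L307R minus wild type) of every measured probe set of the 43 genes; filled circles are main probe sets coloured by role, open diamonds further measured probe sets, coloured bars the role medians and the dashed line the median of all measured genes, 0.06. Role medians run from -0.48 (passenger complex) to -0.03 (spindle assembly and chromatid separation, 0.09 with the mean over probe sets), and the diamonds show how far probe sets of 1 gene can part.

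Counted over probe sets, 64 of the 79 measured probe sets of these genes were lower, and 27 of the 36 that did not give the gene its value. Of those above the floor on both arrays, 61 of 75 were lower, and 24 of the 32 that did not give the gene its value. The rest were measured through a single array, which fixed their direction. In the 27 genes that had several measured, 50 of 63 probe sets were lower (79.4%), while 48.4% of the 14773 probe sets of all such genes were. Of these 27 genes, all probe sets were lower in 17, all higher in 2 (Bub3 and Pttg1) and 8 had both directions (Spc25, Cenpa, Cenpf, Cenpn, Kif20b, Cdc20, Tpx2 and Top2a). Over all 5460 genes of this kind, all measured probe sets were lower in 1086 and higher in 1391, and 2983 had both directions. Further probe sets can lie in other parts of a transcript, and the dim ones near the floor carry more noise.

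Kif2c, Cdc20 and Cdca8 lie on the chromosome of Phc2, within 100 measured genes of it (83, 67 and 27 away). They were at -0.72, -0.50 and -0.41 at main probe sets that are _x_at or _s_at. Their further measured probe sets were at -0.04 and -0.12 (Kif2c), -0.05 and 0.15 (Cdc20), and -0.25 and -0.28 (Cdca8). Without these genes 34 of 40 members were lower and the median was -0.28. Over all measured genes but the neighbours of Phc2, 40.9% were lower.

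Genes with a CHR match had a median log2 ratio of -0.24 over the 27 measured, 23 of them lower, and those of the table without one a median of -0.36 over 10, 9 of them lower. Over all measured genes of the table, 45.4% of those with a match and 39.6% of those without were lower. The split of the members by the match was not tested. The gene of lowest ratio, Nuf2, had no match, and the gene of highest ratio, Espl1, had one 27 bases before its start.

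In further lists of mitosis and cell cycle genes, drawn from general knowledge, 92 of 129 measured genes were lower (71.3%, against 40.9% of all measured genes). Their median was -0.14. At least 1.5-fold lower were 11 (8.53%, against 3.25%), and none was at least 1.5-fold higher (4.19% of all measured genes were). These lists include regulators of cell cycle promoters and general motors, so not all of the genes act in mitosis. Condensin and cohesin, the rings that compact chromosomes and hold sisters together, had a median of -0.34, the lowest of these lists, with 16 of 19 genes lower. At least 2-fold lower in that list were Esco2, which acetylates cohesin (378 and 167, -1.18), the cohesin subunit Rad21 (5565 and 2455, -1.18) and the condensin II subunit Ncapg2 (1428 and 639.6, -1.16); Ncapd2, of condensin I, was at -0.70. Further kinetochore and centromere genes had a median of -0.19, with 20 of 28 lower, and were led by Cenpp (-0.95) and Mis18a, a loading factor of Cenpa (-0.82), then Cenpw (-0.56) and Oip5 (-0.55).

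Further spindle and motor genes had a median of -0.16, with 22 of 27 lower. Dlgap5, which stabilises kinetochore fibres, was at -0.90, Cep55, of the abscission site, at -0.52, Ckap2l at -0.50 and Kif13b at 0.38. Mitotic kinases and cyclins outside the 46 genes had a median of -0.15, with 12 of 18 lower. The values ran from -0.46 for Bora, an activator of Aurka, to 0.17 for Cks2, and Cdca3 was at -0.41, Cdca2 at -0.40 and Pbk at -0.29. Regulators of cell cycle promoters had a median of -0.15, with 16 of 21 lower; E2f5 and E2f8 were at -0.53 and -0.48. Subunits of MuvB differed among themselves: Lin9 and Lin54, the latter of which contacts the CHR, were at -0.91 (263 and 140.1) and -0.88 (660.4 and 359), Lin37 was at -0.10 and Rbbp4 at 0.0063, and Lin52 was below the floor on both arrays. Of the subunits and partners of the anaphase promoting complex 6 of 16 were lower (37.5%), a share near the 40.9% of all measured genes, with a median of 0.11, from Cdc27 at -0.48 to Fzr1 at 0.33, Anapc5 at 0.32 and Anapc7 at 0.41.

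The DNA replication machinery, which serves S phase, was lower too: 39 of 47 measured genes (83.0%, against 40.9% of all measured genes), with a median of -0.21. Of the 47, 2 were at least 1.5-fold lower (4.26%), a share near the 3.25% of all measured genes. Orc1 was at -0.63, Pola1 at -0.60 and Rfc4 at -0.57, while Lig1 was at 0.52. Whether the mitotic genes differ from it cannot be tested with 1 array per genotype. In the promoter windows, 9 of 39 replication genes held a CHR (23.1%), 23 a CCAAT box (59.0%) and 10 the E2F core (25.6%); these shares were not tested against those of the mitotic genes.

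**Figure D5:**
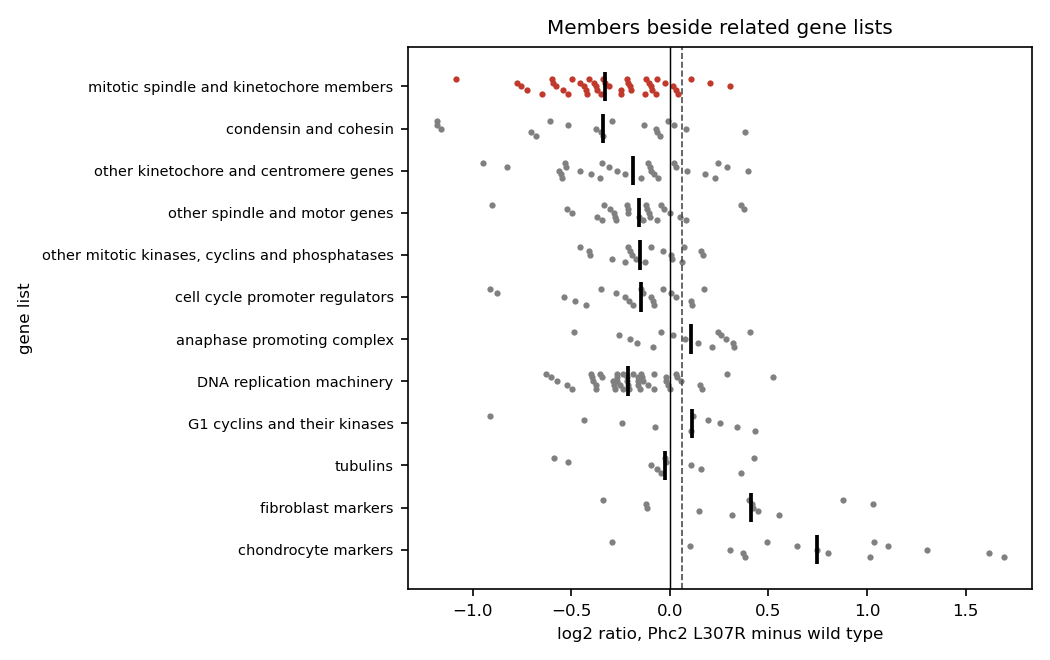
Log2 ratio (x axis, Phc2 L307R minus wild type) of each measured gene (points) in the mitotic members (red) and 11 related or marker lists (grey); black bars are list medians and the dashed line the median of all measured genes, 0.06. Medians run from -0.34 (condensin and cohesin) and -0.33 (members) to 0.75 (chondrocyte markers).

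Across the arrays as a whole, median signals were 94.8 and 94.3, and the ratio of 3' to 5' signal, a measure of RNA integrity, was 0.791 and 0.721 for Gapdh and 1.15 and 1.14 for Actb, wild type first. Phc2 had a signal of 3184 and 4079.

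The fibroblast markers Col1a1, Col1a2 and Col3a1, genes of the collagens of connective tissue, were bright in both cultures, at log2 ratios of 0.40, 0.45 and 0.56. All 12 fibroblast markers were measured and 9 were higher, where 59.1% of all measured genes were, with a summed signal of 138385 and 178531. Pdgfra, Pdgfrb and S100a4 were lower, at -0.12, -0.34 and -0.12. Of 16 chondrocyte markers 15 were measured and 14 were higher (10470 and 14973 in sum), with Col2a1 at 0.49, Acan at 0.75 and Col9a1 at 0.80. The exception was Sox9, at -0.29. Of the higher ones, Matn1 and Cnmd were below the floor in wild type, at 90.4 and 87.5. They counted as measured only through Phc2 L307R, which fixed their direction. The 15 measured include 13 above the floor on both arrays, some of them near it in wild type, such as Snorc at 97.9. Of the 5 osteoblast markers with a probe set 4 were higher (776 and 1774), with Ibsp at 2.12, Dlx5 at 1.15 and Alpl at 0.72. Omd was lower, at -0.33. Of 12 macrophage markers 5 were measured and 4 of these were higher (642 and 960.4): Ptprc was below the floor on both arrays and Cd68 was at -0.11, while Csf1r was at 0.57 and Laptm5 at 1.00.

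Endothelial, epithelial and neural markers were each higher in as many genes as they were lower. Endothelial markers were measured in 4 of 10 (823 and 766), with Pecam1 and Cdh5 below the floor, Kdr at 0.05 and Emcn at -1.15. Epithelial markers were measured in 4 of 8 (2179 and 2228), with Epcam and Cdh1 below the floor, Krt5 at -0.31, Krt18 at -0.48 and Krt19 at 0.29. Neural markers were measured in 8 of 10 (5315 and 6333), with Elavl3 below the floor. Single neural markers differed widely in both directions, with Map2 at -1.31, Tubb3 at 0.43, Dcx at 0.82 and Stmn2 at 1.01. Dcx was below the floor in wild type (53.7), so it counted only through Phc2 L307R and its ratio is taken from the floor. Of the 8 measured neural markers, 6 were above the floor on both arrays. The cartilage list was thus mostly higher in the culture whose mitotic genes were mostly lower. So were 4 of the 5 measured genes in both the bone and the macrophage list. Both lists were dim in wild type, where their brightest genes were Ibsp at 229 and Csf1r at 163. Sp7, of the bone list, was below the floor there at 91 and counted as higher only through Phc2 L307R. Over all measured genes 59.1% were higher. The part of any of these lists in the difference of the mitotic genes was not tested.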

How the data were processed

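The values used were the authors' deposited intensity table, on a linear scale, which covers 45101 probe sets on 2 arrays. Per the submitters' processing notes, the software was Affymetrix Expression Console with MAS5 (no version stated). Scaling: not given in the sources used here. Either array had a mean of 500.0 after trimming 2% from both ends. No detection calls were used.

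Here 64 control probe sets were left out. Of the other 45037, 34945 had 1 gene symbol, 932 several and 9160 none; 34741 symbols were matched to RefSeq (GRCm38.p6), used for names, gene order and promoters. Each gene was read from the probe set with the highest average log2 signal. Signals below the floor were raised to it before the log2 ratio. Of 18193 genes 11408 were measured, 10703 on both arrays. Differences were counted by size (2-fold and 1.5-fold), with no test. The alternatives were quantile normalization, loess (span 0.4, 3 iterations; statsmodels 0.14.6), centring, no floor, a floor at the 40th or at the 60th percentile, a pseudocount, the mean over probe sets, no _x_at and _s_at probe sets, and no neighbours of Phc2. The calculation was tested on simulated arrays with known shifts.

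The members, roles, lists and the naming rule (every measured member; up to 4 genes of largest difference in each other list; the first 3 markers of a cell type) were chosen with earlier results of these data known. Some named genes or probe sets beyond the rule were chosen after their values were seen. The 30-base stretches and the genes of the 100-base stretches were picked by their matches and values; 1 stretch is not reported here.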

Additional observations from a re-analysis of the deposited data

How the results depend on the processing

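Under the 10 alternatives the median log2 ratio of the members stayed between -0.39 (centred) and -0.28 (without the neighbours of Phc2), and 34 to 40 members were lower, of 40 to 43 measured. The share of all measured genes that were lower ran from 40.2% (floor at the 60th percentile) to 50% (centred). The count of 40 is from the centred setting. With the floor as a pseudocount, which shrinks every ratio, 0 members were at least 2-fold lower (0.193% of all measured genes were). At least 1.5-fold lower were 3 members (1.93% of all measured genes were). With the mean over probe sets the median was -0.21 for the checkpoint, -0.36 for the passenger complex and 0.0942 for spindle assembly and chromatid separation, which turned its sign. Without _x_at and _s_at probe sets it was -0.22 for the kinesins, -0.20 for the checkpoint and 0.0063 for spindle assembly and chromatid separation. There Kif2c was read from a probe set at -0.04, Cdc20 from one at -0.05 and Kif22 from one at -0.41, and Aurkb was not measured. The floors at the 40th and 60th percentiles and no floor leave the main values of members as they are, all above the floor, so they test little. Of the 37 lower members, 33 were lower under every alternative that measured them; the others, Cenpa, Cenpn, Spc25 and Top2a, turned above 0 with the mean or without these probe sets. Kif20b, Pttg1 and Ccnb2 were below 0 when centred, Kif20b under 3 further alternatives too, while Bub3, Tpx2 and Espl1 stayed above it throughout. The median of all measured genes, 0.06 in the main setting, was 0.05 after quantile normalization and 0.03 after loess. Centring sets it to 0 by definition. No paired analysis was possible because each genotype has 1 array, and for the same reason no replicate could be left out. The second probe sets of Cenpf, Cenpa, Spc25, Bub1, Ttk and Kif20b lie near the floor, which limits their values.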

Other observations

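Tubulins, the building blocks of the spindle and of the microtubules of resting cells, were lower in 7 of 11 measured genes, with a median log2 ratio of -0.03. Tubb2b was lower at -0.59 (3855 and 2563) and Tube1, a centriolar tubulin, at -0.51, while Tubb3 was at 0.43 and the abundant Tubb5 at 0.36 (16682 and 21403). A list of 10 cyclins and kinases of G1 also holds Ccnh and Cdk7, which are not particular to G1. Of the 10, 4 were lower (40%, near the 40.9% of all measured genes) and the median was 0.11. Ccne2 (cyclin E2) was at -0.91 (1228 and 652), Ccnh at -0.43, Cdk6 at 0.34 and Ccnd3 (cyclin D3) at 0.43. These lists were not tested against the mitotic genes.

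Outside the 46 genes, 166 measured genes had a CHR within 50 bases of an annotated start together with a CCAAT box in the same promoter window. Of these, 86 were lower (51.8%), with a median log2 ratio of -0.02, beside 40.1% lower and a median of 0.07 over the 9061 other measured genes of the promoter table. The window was chosen after the positions in the members were seen, and the letters alone do not show that a factor binds there.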
